A study of Homo sapiens with 18 samples.

Results

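Aminoacyl-tRNA synthetases were described across 18 RNA sequencing libraries as 35 genes out of 20263 in the count table, 19 for cytosolic enzymes and 16 for mitochondrial enzymes. The members were chosen by gene symbol, matched through their Ensembl identifiers, and all 35 were found and had enough reads to be tested. The libraries came from wild-type human cancer cells labelled HCT-116 (colon carcinoma), MDA-MB-231 (breast carcinoma) and MHCC-97H (liver carcinoma), grown in high-glucose DMEM with 10% FBS. Under each label, 3 libraries came from cells given H3B-8800 at 20 nM for 24 h and 3 from cells given the solvent DMSO. H3B-8800 is a small molecule that binds the SF3B complex of the spliceosome and alters splicing. Whether the 3 libraries of a group are separate cultures is not in the labels, and every p-value measures the spread between these libraries only.

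A tRNA synthetase joins an amino acid to the tRNAs that carry it, which is the step that makes the genetic code hold during translation. Most amino acids have a nuclear gene for the enzyme of the cytosol and another for the enzyme of mitochondria, and GARS1 and KARS1 each encode both forms. Synthetases fall into class I and class II by the fold of their catalytic domain, several cytosolic ones sit together in the multisynthetase complex, and many cytosolic ones are transcribed by ATF4, a factor that responds to amino acid shortage and to stress of the endoplasmic reticulum.

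Totals ran from 28232315 to 41488278 counts per library. The libraries labelled HCT-116 and MDA-MB-231 shared one expression profile: over 14234 genes, log2 CPM (read counts per library total, scaled by trimmed-mean factors) correlated at a median of 0.986 between libraries of these labels, at 0.985 and 0.986 within them, and at 0.652 and 0.653 with the libraries labelled MHCC-97H. KRT20, an intestinal keratin, averaged 878 CPM in the libraries labelled HCT-116 and 855 CPM in those labelled MDA-MB-231, and VIL1, a protein of the brush border, 206 and 194 CPM. Under the MHCC-97H label these genes, and the hepatocyte genes ALB, APOA1 and AFP, had 0 counts in all 6 libraries, which allows up to 0.0142 CPM for counting error only. The sums of marker lists that follow are CPM of the library total, without trimmed-mean factors. The liver list of 9 genes summed to between 4.22 and 5.59 CPM under MHCC-97H, against 67.0 to 102.8 CPM under the other labels. The colon list of 7 genes summed to at most 0.17 CPM there and to between 1596 and 1695 CPM elsewhere. A list of 7 genes of mesenchymal breast carcinoma summed to 3176 to 3817 CPM there and 6784 to 7806 CPM elsewhere, but in it VIM, the filament vimentin, averaged 1298 CPM under MHCC-97H, 21.2 CPM under HCT-116 and 18.7 CPM under MDA-MB-231, and KRT17, a keratin of basal cells, 1664, 0.182 and 0.228 CPM. In DMSO 3 genes of the mesenchymal list were higher and 3 lower under MHCC-97H than under each other label, at an adjusted p under 0.05. Of all genes, 39.5% were higher and 43% lower. Blood and stroma genes (3) summed to 35.5 to 37.1 CPM under MHCC-97H and to 4.40 to 6.66 CPM elsewhere. Each label is therefore used below as a name for its libraries and not as an identity. In DMSO, 0 members differed between the HCT-116 and MDA-MB-231 labels at an adjusted p under 0.05 (the call used throughout), where 0.0351% of all genes did.

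Levels in DMSO were set beside each other per kilobase of annotated exon, since longer transcripts give more reads. The length used joins all annotated exons of a gene over its transcripts, and the order of genes depends on it. Cytosolic enzymes had a median of 31.5 CPM per kilobase under the MHCC-97H label, 23.9 under MDA-MB-231 and 22.4 under HCT-116, against 5.04, 4.99 and 5.22 for mitochondrial enzymes. KARS1, the lysyl enzyme of both compartments, had the highest level under the MHCC-97H label at 60.4 CPM per kilobase, followed closely by AARS1, the alanyl enzyme, at 58.8. AARS1 led under the HCT-116 and MDA-MB-231 labels at 83.0 and 92.6. By CPM without length VARS1 was the highest member under MHCC-97H, at a mean of 325 CPM beside 245 CPM for KARS1. Among mitochondrial enzymes IARS2, which charges isoleucine, stood far above the rest with 49.7, 60.1 and 61.6 CPM per kilobase under the labels MHCC-97H, HCT-116 and MDA-MB-231, ahead of the threonyl enzyme TARS2 with 16.3, 24.9 and 26.6. MARS2, the mitochondrial methionyl enzyme and the only member with no intron, was the lowest under every label, at 0.203, 0.956 and 1.16, and rested on 8 to 49 counts per library under the MHCC-97H label.

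**Figure D1:**
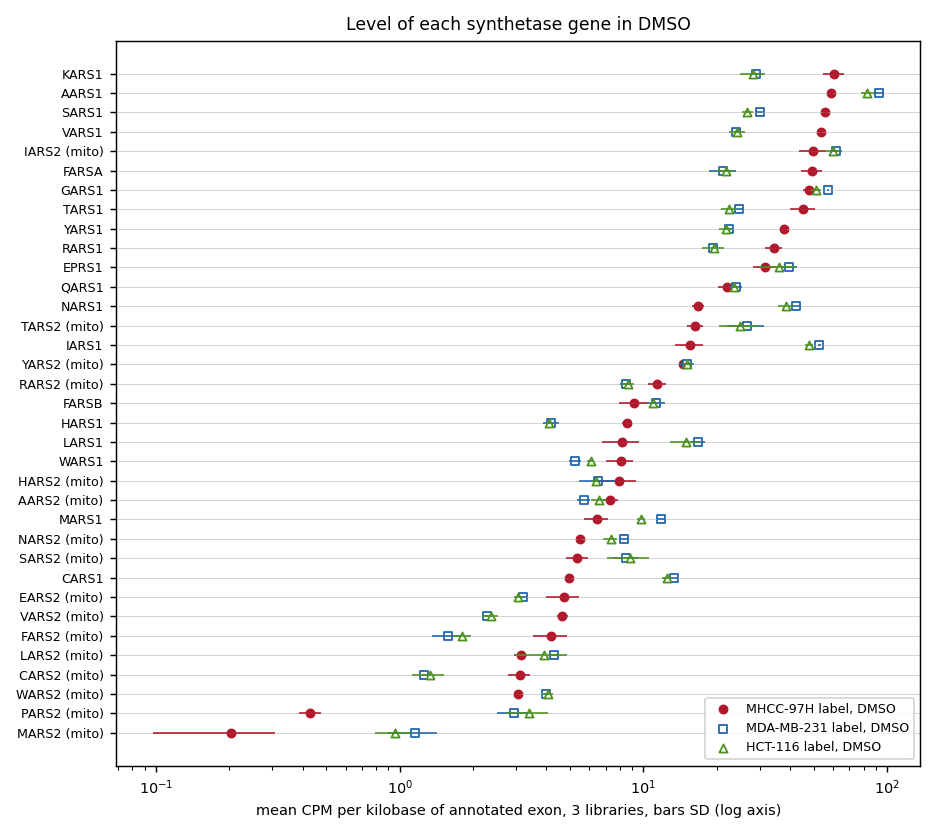
Mean level of each synthetase gene in DMSO, in CPM per kilobase of annotated exon on a log axis, with SD bars, for 3 libraries under each label; (mito) marks mitochondrial enzymes. The HCT-116 and MDA-MB-231 points lie close together, and MARS2 and PARS2 lie lowest under the MHCC-97H label.

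Baseline levels in DMSO differed between the MHCC-97H label and the others in most members, as in most genes. Against the MDA-MB-231 label 16 members were higher and 16 lower, where 82.7% of all genes differed (39.5% higher and 43.2% lower). Against the HCT-116 label 15 were higher and 15 lower, where 82.5% of all genes differed (39.5% higher and 43% lower). FARS2, the mitochondrial phenylalanyl enzyme, had 22.6, 21.7 and 16.6 CPM under the MHCC-97H label, 7.21, 6.86 and 8.77 CPM under MDA-MB-231 and 7.94, 9.48 and 8.82 CPM under HCT-116, a log2 difference of 1.41 and 1.21. CARS2, the mitochondrial cysteinyl enzyme, had 28.9, 35.5 and 33.4 CPM against 13.6, 13.0 and 13.0 and against 12.7, 16.3 and 12.7 CPM. FARSA, the catalytic subunit of the cytosolic phenylalanyl enzyme, was the third member of this kind with 116, 111 and 134 CPM against 45.4 to 58.9 CPM in the 6 other DMSO libraries. In all 3 genes the MHCC-97H controls lay above every other control.

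The lowest members relative to the other labels were PARS2, MARS2 and IARS1. PARS2, the mitochondrial prolyl enzyme, had 1.13, 0.975 and 0.927 CPM under the MHCC-97H label, 5.91, 6.86 and 7.93 CPM under MDA-MB-231 and 6.22, 8.42 and 9.23 CPM under HCT-116, a log2 difference of -2.77 and -2.97. MARS2 had 0.265, 0.893 and 0.679 CPM against 2.65, 3.60 and 4.23 and against 2.34, 3.08 and 3.24 CPM. IARS1, the cytosolic isoleucyl enzyme, had 132, 103 and 109 CPM against 397, 389 and 384 and against 355, 338 and 366 CPM, a log2 difference of -1.76 and -1.62. No MHCC-97H control of these 3 genes reached the level of any other control.

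H3B-8800 changed 16 of the 35 members under the MHCC-97H label, where 27.6% of all 14234 genes were called (12.9% higher and 14.7% lower). Among cytosolic enzymes 7 of 19 rose and 4 fell, and among mitochondrial enzymes 2 of 16 rose and 3 fell. The largest rises were in LARS1 and EPRS1 of the cytosol and in IARS2 of mitochondria, and none reached 2-fold. The median log2 fold change was -0.07 for cytosolic and -0.11 for mitochondrial enzymes, beside -0.06 for all genes. The 19 members without a call had log2 fold changes from -0.51 to 0.63, and 17 of these were negative. Of the 17, KARS1, CARS2, PARS2, SARS2 and VARS2 stayed negative in each of the 29 alternative analyses described below. The others were positive in at least 1 of them. Treated and control libraries did not overlap in 22 members, 9 above and 13 below, where 47.6% of all genes did not overlap (19.6% above and 28.0% below).

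**Figure D2:**
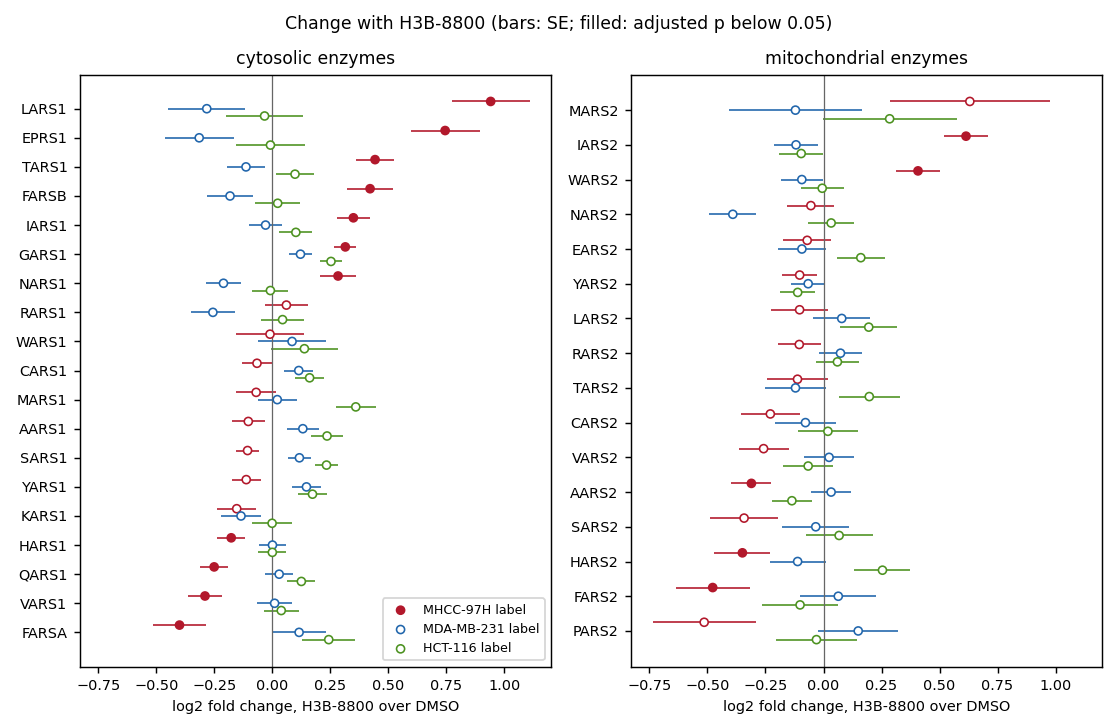
Log2 fold change of each member with H3B-8800 over DMSO under the 3 labels, cytosolic enzymes left and mitochondrial right; bars are the standard error of the fit and filled points have an adjusted p under 0.05. Filled points occur under the MHCC-97H label only, 9 to the right of 0 and 7 to the left.

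LARS1, the leucyl enzyme of the multisynthetase complex (chr5:146113038-146182660 on GRCh38, minus strand), had 79.2, 56.7 and 63.9 CPM in DMSO and 130, 127 and 126 CPM with H3B-8800. All treated libraries lay far above all controls. The rise was 1.92-fold (log2 0.94, SE 0.17, adjusted p = 0.00251). EPRS1, a single chain that charges both glutamate and proline (chr1:219968601-220046658, minus strand), had 193, 164 and 158 CPM in DMSO and 287, 300 and 277 CPM with treatment. The groups were again apart, with a rise of 1.68-fold (log2 0.74, SE 0.15, adjusted p = 0.00394). TARS1, the threonyl enzyme (chr5:33440696-33469539, plus strand), had 293, 240 and 243 CPM in DMSO and 344, 356 and 356 CPM with treatment. Control 1 lay closest to the treated libraries, without reaching them, and the rise was 1.36-fold (adjusted p = 0.00271).

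GARS1, the glycyl enzyme of both compartments (chr7:30594681-30634033, plus strand), had 213, 194 and 191 CPM in DMSO and 245, 250 and 248 CPM with H3B-8800. Its rise of 1.24-fold (log2 0.31, SE 0.05) had the smallest adjusted p of any member, 0.00143. IARS1 had 132, 103 and 109 CPM in DMSO and 146, 148 and 144 CPM with treatment, a rise of 1.27-fold (adjusted p = 0.00434) that left it far below its level under the other labels. FARSB, the non-catalytic subunit of the cytosolic phenylalanyl enzyme, had 35.7, 29.0 and 28.1 CPM in DMSO and 39.4, 44.0 and 40.7 CPM with treatment, a rise of 1.34-fold (adjusted p = 0.0073). NARS1, the asparaginyl enzyme, had 72.9, 68.5 and 64.8 CPM in DMSO and 81.2, 87.8 and 81.9 CPM with treatment, a rise of 1.22-fold (adjusted p = 0.0158). In none of these genes did a treated library fall among the controls. Control 1 was the highest control in 8 of the 9 members that rose, WARS2 being the exception.

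The cytosolic members that fell were QARS1, VARS1, FARSA and HARS1, all by less than 1.5-fold. QARS1, the glutaminyl enzyme of the multisynthetase complex, had 97.0, 112 and 101 CPM in DMSO and 84.3, 85.8 and 90.7 CPM with H3B-8800, a log2 fold change of -0.25 (SE 0.06, adjusted p = 0.00889). VARS1, the valyl enzyme, had 320, 326 and 329 CPM in DMSO and 266, 251 and 280 CPM with treatment, a log2 fold change of -0.29 (SE 0.07, adjusted p = 0.0114). FARSA had 116, 111 and 134 CPM in DMSO and 100, 91.2 and 81.5 CPM with treatment, a log2 fold change of -0.40 (SE 0.11, adjusted p = 0.0183). Every treated library of these genes lay below every control. HARS1, the histidyl enzyme of the cytosol, had a log2 fold change of -0.18 (adjusted p = 0.0374). FARSA and FARSB form one enzyme and were called in opposite directions.

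**Figure D3:**
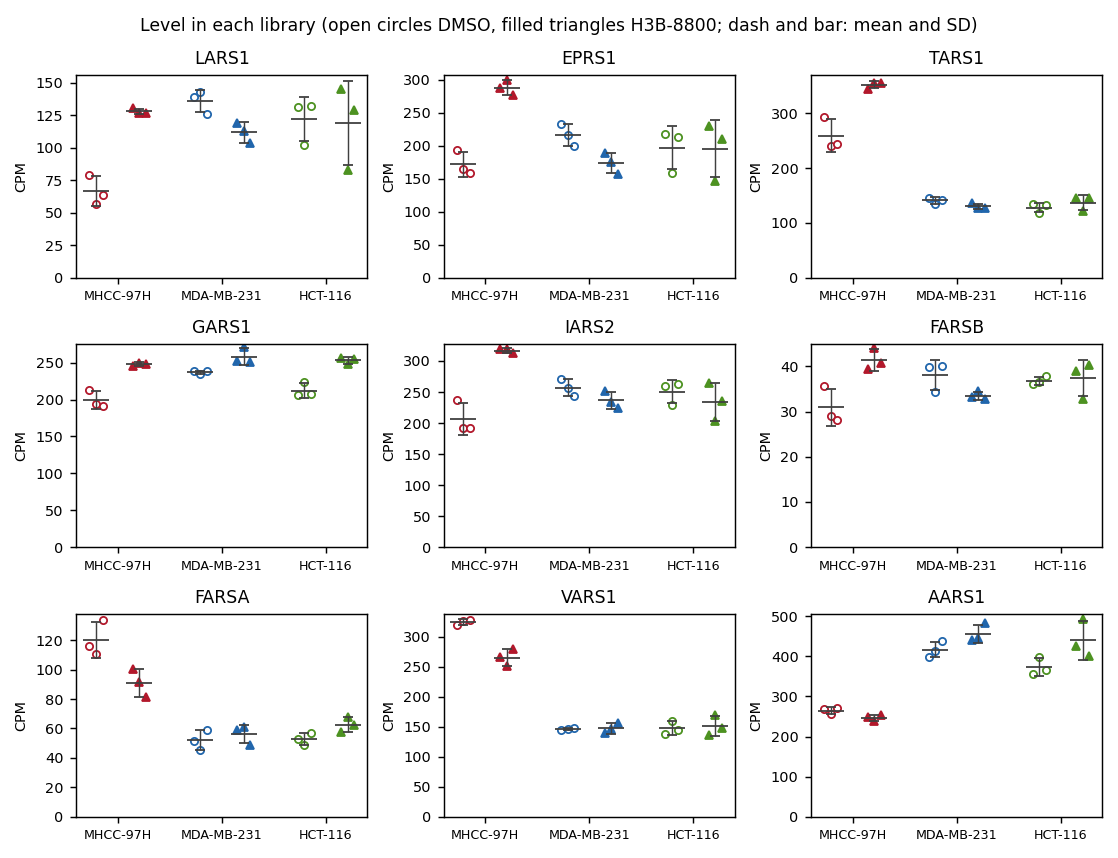
CPM of 9 members in each library, in DMSO (open circles) and H3B-8800 (filled triangles) under the 3 labels, with the mean as a dash and the SD of 3 libraries as a bar; each axis starts at 0. Under the MHCC-97H label LARS1 lies at 56.7 to 79.2 CPM in DMSO and at 126 to 130 CPM with H3B-8800, while AARS1 lies slightly lower with H3B-8800 there and higher under the other labels.

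Among mitochondrial enzymes IARS2 (chr1:220094102-220148041, plus strand) had 237, 192 and 192 CPM in DMSO and 319, 319 and 312 CPM with H3B-8800 under the MHCC-97H label. All treated libraries lay above the controls, with a rise of 1.53-fold (log2 0.61, SE 0.10, adjusted p = 0.00153). WARS2, the tryptophanyl enzyme, had 11.4, 12.1 and 11.7 CPM in DMSO and 14.7, 17.8 and 14.2 CPM with treatment, a rise of 1.33-fold (adjusted p = 0.0067). AARS2, the alanyl enzyme, had 29.3, 31.4 and 33.7 CPM in DMSO and 26.2, 23.1 and 26.8 CPM with treatment, a log2 fold change of -0.31 (SE 0.09, adjusted p = 0.0164). The groups of WARS2 and AARS2 did not overlap. FARS2 and HARS2, the histidyl enzyme, also fell (log2 -0.48 and -0.35, adjusted p = 0.0374 and 0.0432), and in both a treated library lay among the controls.

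The summed level of a set of enzymes is led by its most abundant members and is given as a description. Under the MHCC-97H label the mitochondrial enzymes summed to 603, 580 and 567 CPM in DMSO and to 649, 662 and 644 CPM with H3B-8800. IARS2 supplied 39.3%, 33.1% and 33.8% of the DMSO sums and 49.2%, 48.2% and 48.5% of the treated sums. Without IARS2 the direction was the opposite with this scaling, with 366 to 388 CPM in DMSO and 330 to 343 CPM with treatment. The trimmed-mean factors were 0.860 to 0.891 in these controls and 0.952 to 0.967 in the treated libraries. They lower treated values relative to controls, so the fall without IARS2 depends on them. The cytosolic enzymes summed to 2802 to 2860 CPM in DMSO and 2997 to 3016 CPM with treatment under this label. Under HCT-116 they summed to 2613 to 2624 and 2813 to 2917 CPM, and under MDA-MB-231 to 2812 to 2847 and 2800 to 2807 CPM.

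For 13 amino acids both a cytosolic and a mitochondrial enzyme of the same amino acid had a gene of its own among the members. Under the MHCC-97H label both genes were called the same way for 2 amino acids, isoleucine (IARS1 and IARS2 rose) and histidine (HARS1 and HARS2 fell), and in opposite ways for 0. For 6 amino acids only 1 of the pair was called, and for 5 neither was. Phenylalanine stands outside this count, since its cytosolic enzyme has 2 genes: FARSB rose (log2 0.42), while FARSA and the mitochondrial FARS2 fell (-0.40 and -0.48). For leucine, LARS1 had a log2 fold change of 0.94 and LARS2 of -0.10, and for threonine TARS1 had 0.44 and TARS2 -0.11. The difference within these pairs was not tested.

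Some members lie near each other or share transcribed bases with other genes. EPRS1 and IARS2, both of which rose, lie on chromosome 1 and point away from each other with 47443 bases between them. Whether other genes lie in that gap was not examined. HARS1 and HARS2, both of which fell, start 85 bases apart on opposite strands of chromosome 5, and 8.4% and 15.8% of their annotated exon bases overlap other genes, each other included. Exons of 19 members overlap another gene, among them SARS2 (57.0% of its bases, with MRPS12 and an uncharacterised gene), VARS2 (22.0%, with GTF2H4) and MARS1 (13.3%, with the stress gene DDIT3 among others), while LARS1 (0.5%) and GARS1 (2.4%) share few and EPRS1, IARS2, IARS1, TARS1, NARS1, FARSB, VARS1 and FARS2 share none. Whether reads were counted by strand is not given in the sources used here, so reads of overlapping genes cannot be told apart.

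The direction of the calls under the MHCC-97H label was set beside base composition. GC content was taken over all annotated transcript sequences of a gene together, so an exon held by several transcripts counts more than once. The GC content of annotated exons was between 41.4% and 47.4% in the 9 members that rose and between 49.6% and 61.6% in the 7 that fell. Among the 19 members without a call, KARS1, RARS1, RARS2 and NARS2 also had a GC content of at most 47.4%. Spearman's rho between log2 fold change and GC content was -0.75 over the 35 members, which share libraries and are no replicates, and that with exon length was 0.08. Over 14223 genes the value was -0.53 for GC content and 0.36 for exon length. Under the HCT-116 and MDA-MB-231 labels rho with GC content was 0.18 and 0.32 over these genes. Over the 35 members it was 0.17 and 0.52. Mitochondrially encoded genes took 1.14% to 1.22% of counts in MHCC-97H controls and 1.37% to 1.39% in treated libraries. The part of that share in the result was not tested.

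Taking out of each library the trend of all genes on GC content and exon length left 7 of the 16 calls. LARS1 then had a log2 fold change of 0.59 (adjusted p = 0.00126), EPRS1 0.51 (0.00201), IARS2 0.43 (0.000594), GARS1 0.30 (0.00152), WARS2 0.28 (0.0476), TARS1 0.25 (0.00528) and HARS1 -0.21 (0.0317). GARS1, with the highest GC content of the members that rose, moved least among the risers. IARS1 missed the call at 0.06 (adjusted p = 0.605), FARSB at 0.25 (0.0619) and NARS1 at 0.17 (0.053). FARSA had -0.12 (0.599), QARS1 -0.08 (0.458), VARS1 -0.13 (0.086) and AARS2 -0.09 (0.371). FARS2 at -0.36 (0.16) and HARS2 at -0.28 (0.137) also missed the call, nearer to their first values of -0.48 and -0.35. The opposite calls of FARSA and FARSB were both lost. Over the 35 members Spearman's rho between log2 fold change and GC content was then -0.36.

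**Figure D4:**
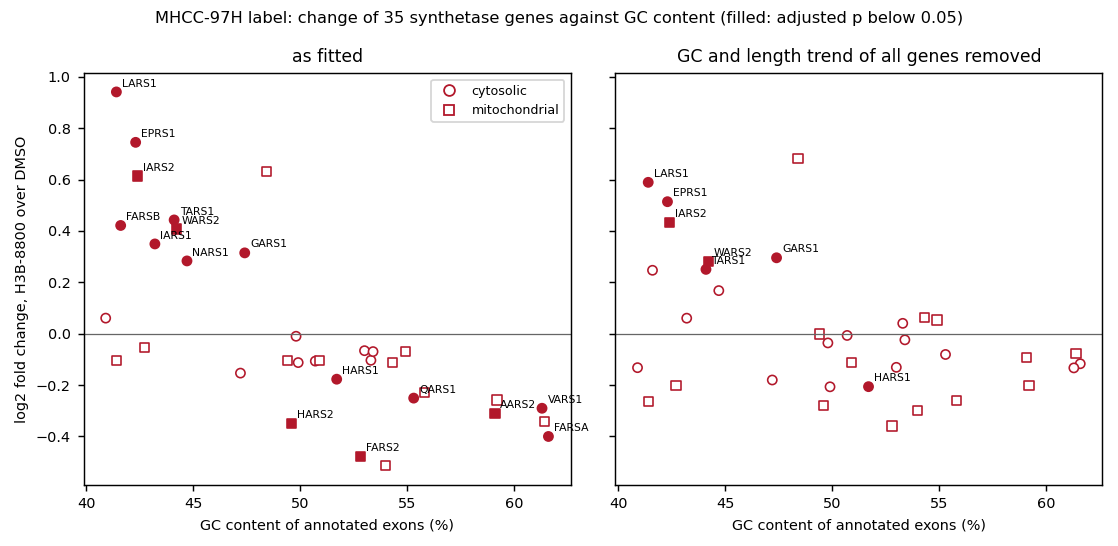
Log2 fold change with H3B-8800 under the MHCC-97H label against GC content of annotated exons for the 35 members (circles cytosolic, squares mitochondrial, filled at an adjusted p under 0.05), as fitted on the left and after removing the GC and length trend of all genes on the right. Filled points above 0 all lie at or below 47.4% GC in both panels, and the calls below 0 shrink from 7 to HARS1 alone.

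EPRS1, GARS1, LARS1, TARS1, IARS2 and WARS2 stayed called in each of 29 alternative analyses, 18 of which left out 1 library. No call of a lower level stayed in all of them. With scaling by library totals 0 cytosolic and 0 mitochondrial members were called lower, and the split over all genes went from 1831 higher and 2091 lower to 2501 higher and 346 lower (1943 and 1301 with upper-quartile factors). Under the MHCC-97H label NARS1 lost its call without control 3 (0.24, adjusted p = 0.0716) or without treated library 2 (0.25, 0.0646), and VARS1 without treated library 2 (-0.25, 0.0541). FARSA lost its call without control 3 (-0.32, 0.0919), treated library 2 (-0.40, 0.0535) or treated library 3 (-0.33, 0.0728), and AARS2 without control 3 (-0.26, 0.0774) or treated library 2 (-0.25, 0.0795). HARS1 lost it without any of control 2, control 3 and the treated libraries (adjusted p from 0.079 to 0.145), and FARS2 without control 1, control 2, treated library 1 or treated library 3 (adjusted p from 0.055 to 0.156). HARS2 lost it in 13 of the 18, with adjusted p from 0.051 to 0.229.

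Under the HCT-116 and MDA-MB-231 labels edgeR's quasi-likelihood test called 0 members for H3B-8800, where 0.0351% of all genes were called under each. At an unadjusted p under 0.05 it passed 6 members under each label, where 4.60% and 7.19% of all genes passed. DESeq2 called GARS1 under the HCT-116 label (log2 0.25, adjusted p = 0.0127) and limma voom called 0 under both labels. Log2 fold changes ran from -0.39 to 0.15 under MDA-MB-231 and from -0.14 to 0.36 under HCT-116. Treated and control libraries did not overlap in 7 members under HCT-116, all 7 with treatment above (GARS1, SARS1, AARS1, MARS1, QARS1, FARSA and HARS2), where 3.71% of all genes lay above and 3.29% below. Under MDA-MB-231 4 members lay above (GARS1, SARS1, YARS1 and AARS1) and 5 below (LARS1, EPRS1, NARS1, RARS1 and NARS2), where 8.67% and 9.86% of all genes did.

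GARS1 had 238, 235 and 238 CPM in DMSO and 252, 271 and 250 CPM with H3B-8800 in the MDA-MB-231 libraries, and 206, 223 and 207 against 256, 248 and 255 CPM under HCT-116. Its treated libraries lay above its controls under all 3 labels, an observation made after its values were seen. The log2 fold changes were 0.31, 0.25 and 0.12 under MHCC-97H, HCT-116 and MDA-MB-231, with adjusted p = 0.00143, 0.229 and 0.631. AARS1, the alanyl enzyme of the cytosol, had 398, 414 and 437 against 440, 446 and 482 CPM under MDA-MB-231 and 355, 399 and 366 against 426, 494 and 400 CPM under HCT-116, with treatment above in both. The margin for AARS1 was narrow, with nearest libraries at 437 and 440 CPM under MDA-MB-231 and 399.1 and 399.5 CPM under HCT-116. Under MHCC-97H its controls had 268, 255 and 270 CPM and its treated libraries 248, 238 and 253 CPM, with treatment below and no call (log2 -0.10, adjusted p = 0.299). MARS1, the cytosolic methionyl enzyme of the complex, had the largest value under HCT-116, with 65.6, 70.8 and 69.3 against 88.0, 91.5 and 84.5 CPM (log2 0.36, unadjusted p = 0.000731, adjusted p = 0.427).

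Since the HCT-116 and MDA-MB-231 libraries shared a profile, the mean of their 2 effects was also tested, a comparison added after seeing the data. It called 0 members, where 0.0422% of all genes were called, and passed 8 at an unadjusted p under 0.05, where 7.59% of all genes passed. GARS1 came nearest, at a log2 fold change of 0.19 (adjusted p = 0.108), and was called by DESeq2 (adjusted p = 0.00106), limma voom (0.0486), after removal of the GC and length trend (0.0491), and without control 2 of HCT-116 (0.0439) or control 1 of MHCC-97H (0.0431). With a block for the replicate number, SARS1 and AARS1 were called (log2 0.17 and 0.18, adjusted p = 0.0382 and 0.0418).

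Within the HCT-116 label the libraries numbered 2 stood apart in both arms. LARS1 had 131, 102 and 132 CPM in DMSO and 145, 82.6 and 129 CPM with treatment, EPRS1 had 218, 159 and 213 against 230, 146 and 210 CPM, and IARS2 had 259, 229 and 262 against 264, 203 and 235 CPM. In each of these genes library 2 was the lowest of its group with and without H3B-8800. TARS2 had 89.4, 92.3 and 123 CPM in DMSO and 108, 131 and 110 CPM with treatment there, with no such order. Leaving out either library 2 of this label left 0 members called under it.

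The response differed between labels for 12 members by the interaction over the 3 labels, where 15.4% of all genes passed. Between MHCC-97H and MDA-MB-231 11 members differed, where 20.2% of all genes did, between MHCC-97H and HCT-116 also 11, where 13.2% did, and between HCT-116 and MDA-MB-231 0, where 0.0351% did. The first 2 of these comparisons share the MHCC-97H libraries and are not independent of each other. LARS1 had log2 fold changes of 0.94, -0.03 and -0.28 under MHCC-97H, HCT-116 and MDA-MB-231 (adjusted p of the interaction 0.0124), EPRS1 0.74, -0.01 and -0.32 (0.0145) and IARS2 0.61, -0.10 and -0.12 (0.00877). SARS1, the seryl enzyme, and MARS1 were called for the interaction although not for treatment under any label. SARS1 had 208, 217 and 216 CPM in DMSO and 201, 196 and 198 CPM with treatment under MHCC-97H, with treatment below, and 101, 108 and 98.1 against 123, 126 and 112 CPM under HCT-116, with treatment above (adjusted p of the interaction 0.0187). GARS1 did not pass (0.127), and 4 members passed once the GC and length trend was removed. Without control 3 of MHCC-97H 2 members passed the interaction, and without its control 2 or its treated library 2 4 members did. Between MHCC-97H and HCT-116 the 11 went to 0 in a fit of these labels alone, where 0.149% of all genes differed, to 2 without control 1 or control 3 of HCT-116, to 3 without control 3 of MHCC-97H, to 4 without its treated library 2, and to 5 without its control 2, its treated library 1 or treated library 2 of HCT-116. Between MHCC-97H and MDA-MB-231 7 differed without control 3 of MHCC-97H.

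Grouped by role, the 12 synthetases known as ATF4 targets held 6 of the 9 members that rose and 0 that fell under the MHCC-97H label (EPRS1, GARS1, IARS1, LARS1, NARS1 and TARS1), with a median log2 fold change of 0.14, where 12.9% of all genes rose and 14.7% fell. The 23 other members held 3 that rose and 7 that fell, with a median of -0.15, and the median over all genes was -0.06. The median GC content was 48.6% in the ATF4 group and 51.7% in the others. Within the ATF4 group it was 41.4% to 47.4% in the 6 that rose and 49.8% to 53.4% in the 6 without a call. With the GC and length trend removed IARS1 and NARS1 lost their calls. The part of GC content in the difference between the groups was not tested. Under HCT-116 9 of the 12 had a positive value and the median was 0.15, beside 15 of 23 and 0.03 for the others, and all 6 members with an unadjusted p under 0.05 belonged to the 12. Under MDA-MB-231 7 of 12 were positive with a median of 0.05. ATF4 itself fell under MHCC-97H, from 452, 469 and 476 CPM to 397, 397 and 402 CPM (log2 -0.22, adjusted p = 0.00193), and ASNS, the asparagine synthetase that ATF4 induces, had -0.12 (adjusted p = 0.115). Under HCT-116 ASNS rose from 92.9, 104 and 94.7 CPM to 134, 140 and 130 CPM (log2 0.47, adjusted p = 0.00247), a gene named after its values were seen, while ATF4 had 0.18 (adjusted p = 0.358).

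Promoters of the members were searched for the C/EBP-ATF response element, to which ATF4 binds as a dimer with C/EBP proteins, as TGATGNAA on either strand (TTNCATCA on the other) in the 300 bases from 250 before to 50 after each RefSeq start. RefSeq windows on GRCh38.p14 were matched for 30 of the 35 members by symbol (39 windows, with more than 1 for 9 members), and those of AARS2, LARS1, VARS1, VARS2 and YARS1 were not used here. The motif was present in 7 of the 10 ATF4 targets with a window and in 1 of the 20 other members, which is 8 of 39 windows, beside 3.62% of 35116 promoters (1270). The stretches of 30 bases that hold it are shown so that the match in each gene can be read, with the motif in capitals, 5′ to 3′ on the strand of the gene.
AARS1 (chr16:70289675-70289704, minus strand): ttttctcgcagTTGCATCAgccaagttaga
CARS1 (chr11:3057407-3057436, minus strand): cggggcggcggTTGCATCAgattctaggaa
GARS1 (chr7:30594834-30594863, plus strand): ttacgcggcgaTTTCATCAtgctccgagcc
IARS1 (chr9:92293692-92293721, minus strand): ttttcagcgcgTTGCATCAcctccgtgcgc
MARS1 (chr12:57488053-57488082, plus strand): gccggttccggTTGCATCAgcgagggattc
NARS1 (chr18:57621804-57621833, minus strand): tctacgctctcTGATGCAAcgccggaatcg
TARS1 (chr5:33440956-33440985, plus strand): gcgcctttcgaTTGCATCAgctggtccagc
YARS2 (chr12:32756076-32756105, minus strand): atccacactgcTGATGGAAaaattaagttt

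In 6 of the 8, AARS1, CARS1, GARS1, IARS1, MARS1 and TARS1, the motif read TTNCATCA on the strand of the gene, and 5 of these carried the same 8 letters TTGCATCA. NARS1 and YARS2 carried it in the other orientation. Of the 7 ATF4 targets shown, GARS1, IARS1, NARS1 and TARS1 rose under MHCC-97H and AARS1, CARS1 and MARS1 were not called, with log2 fold changes of -0.10, -0.07 and -0.07. EPRS1, which rose, held no match in its window. A match describes these letters and no binding was measured.

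Members of the multisynthetase complex did not move as one. Of its 7 enzymes EPRS1, IARS1 and LARS1 rose, QARS1 fell, and KARS1, MARS1 and RARS1 were not called (log2 -0.15, -0.07 and 0.06). Its 3 scaffold proteins AIMP1, AIMP2 and EEF1E1 gave 0 calls, and AIMP2 came nearest with -0.30 (adjusted p = 0.0867). By catalytic class, 4 of 18 class I members rose and 2 fell, and 4 of 16 class II members rose and 5 fell, where 12.9% of all genes rose and 14.7% fell. EPRS1, which joins a domain of each class, was counted in neither.

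Other genes of tRNA charging and use were taken from lists of named genes, and their counts stand beside 12.9% of all genes that rose and 14.7% that fell under MHCC-97H. All values of these listed genes are from the edgeR fit with TMM scaling. No alternative analysis is given for any single gene of these lists. Under MHCC-97H, of 5 genes for selenocysteine tRNA, SEPSECS, which makes selenocysteine on its tRNA, rose (log2 0.64, adjusted p = 0.0091) and EEFSEC, which delivers it, fell (-0.31, 0.0105). Of 3 tested genes for editing, DTD1, a D-aminoacyl deacylase, fell (-0.25, 0.0332), and the 4 genes for mitochondrial amidotransferase and formyltransferase gave 0 calls. Of 21 genes for tRNA processing and export, XPOT, the nuclear export receptor for tRNA, rose (0.45, 0.00305) and 6 fell, including POP7 of ribonuclease P (-0.33, 0.00593) and HSD17B10 of its mitochondrial counterpart (-0.32, 0.00628).

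Against the same shares of all genes, 12.9% higher and 14.7% lower, elongation factors of the cytosol fell in 4 of 6 genes, EEF1D (log2 -0.56, adjusted p = 0.0026), EEF1B2 (-0.35, 0.00283), EEF2 (-0.33, 0.00322) and EEF1G (-0.29, 0.00565), with a list median of -0.31 beside -0.06 for all genes. In the mitochondrial list of 8, GFM1, an elongation factor G, rose (0.43, 0.00294) and TUFM, the elongation factor Tu, fell (-0.30, 0.00769). Of 12 genes for amino acid stress 4 rose and 3 fell, and besides ATF4 these included EIF2AK3 (0.71, 0.00331) and EIF2AK4 (0.64, 0.00392), kinases that act above ATF4 on translation initiation. WARS1, the tryptophanyl enzyme that interferon induces, had 47.6, 58.8 and 47.3 CPM in DMSO and 60.3, 44.5 and 47.8 CPM with H3B-8800, with overlapping groups and no call. Of 4 tested interferon genes 2 rose and 1 fell, and GBP1 had the largest value (1.05, 0.00816). Under the MDA-MB-231 label TARS2 had 88.2, 113 and 124 against 105, 94.0 and 100 CPM, and under MHCC-97H 72.3, 65.0 and 62.1 against 63.9, 57.8 and 62.9 CPM, with overlapping groups in both.

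Values under the other labels are given for the members that changed under MHCC-97H. Under MDA-MB-231 LARS1 had 139, 143 and 126 CPM in DMSO and 119, 113 and 103 CPM with H3B-8800, and EPRS1 had 232, 217 and 199 against 188, 176 and 157 CPM. Treated libraries of both lay below the controls there, without a call (adjusted p = 0.768 and 0.691). IARS2 had 271, 256 and 243 against 251, 234 and 225 CPM and TARS1 146, 134 and 142 against 136, 127 and 127 CPM, with overlapping groups. Under HCT-116 TARS1 had 134, 118 and 132 against 145, 122 and 144 CPM and FARSB 36.0, 36.5 and 37.8 against 38.9, 32.8 and 40.3 CPM, also with overlap. IARS1 had 392, 382 and 373 CPM with treatment under MDA-MB-231 and 404, 357 and 376 CPM under HCT-116, where its groups overlapped with the DMSO libraries given above. NARS1 had 174, 180 and 165 against 162, 147 and 140 CPM under MDA-MB-231, below the controls, and 170, 146 and 156 against 174, 146 and 150 CPM under HCT-116.

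None of QARS1, VARS1 and WARS2 was called under these labels either. QARS1 had 110, 108 and 121 against 111, 114 and 120 CPM under MDA-MB-231 and 108, 114 and 112 against 120, 120 and 124 CPM under HCT-116, above its controls in the latter. VARS1 had 144, 147 and 148 against 139, 147 and 156 CPM under MDA-MB-231 and 137, 160 and 146 against 137, 170 and 148 CPM under HCT-116. WARS2 had 15.5, 15.1 and 15.3 against 15.5, 13.8 and 13.7 CPM under MDA-MB-231 and 15.7, 16.3 and 14.8 against 16.8, 14.6 and 15.2 CPM under HCT-116, with overlap under both.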

How the data were processed

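The deposited table holds whole-number read counts per Ensembl gene, not normalized, made by the authors. Reads were handled with fastp and HISAT2 on GRCh38, per the submitters' processing notes, with versions, counting tool, kit and strand setting not given in the sources used here. The fit used edgeR 4.0.16 in R 4.3.3 (quasi-likelihood F test, TMM scaling, filterByExpr, 1 mean for each of 6 groups over 18 libraries), with Benjamini-Hochberg adjustment over 14234 genes and a call at an adjusted p under 0.05. Adjusted p-values are from this test unless another tool is named. The script was tested on simulated data. Alternatives were 3 other scalings, 2 filters, DESeq2 1.42.0, limma 3.58.1 (voom), a replicate block, splines with 5 degrees of freedom on GC content and exon length, fits of the compared labels alone, and each library left out. GENCODE 29 gave positions, lengths and GC content.

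Members and gene lists were chosen with earlier results of these data known. Every library value was given for up to 12 called members in order of adjusted p, for the 3 highest and 3 lowest at baseline and for the most abundant enzymes, and up to 3 genes of each companion list were named. One companion list is not reported here. No 2 libraries of a group agreed within sampling noise. Same-numbered treated and control libraries were correlated by their deviations from group means over 9233 genes averaging at least 10 CPM. Under HCT-116 all 3 values exceeded 0.1 (0.18, 0.45 and 0.13), so these numbers may mark pairs, although control 1 correlated with treated library 3 at 0.27. Over all 14234 tested genes the 3 same-numbered values under HCT-116 were lower, at 0.05, 0.19 and 0.03. Under MHCC-97H (-0.04, 0.14 and 0.02 over the 9233 genes) and MDA-MB-231 (0.17, 0.13 and 0.01) same-numbered libraries were not treated as pairs.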

Additional observations from a re-analysis of the deposited data

Results flagged for a closer look

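The effect of H3B-8800 differed between the 3 labels by the interaction test of edgeR for 12 members. The adjusted p was 0.00877 for IARS2, 0.0124 for LARS1, 0.0145 for EPRS1, 0.0172 for TARS1, 0.0187 for SARS1 and 0.0229 for QARS1. It was 0.0235 for NARS1, 0.0248 for FARSB, 0.0300 for FARSA, 0.0340 for WARS2, 0.0452 for IARS1 and 0.0476 for MARS1. The log2 fold changes under MHCC-97H, HCT-116 and MDA-MB-231 were 0.44, 0.10 and -0.11 for TARS1, -0.40, 0.24 and 0.12 for FARSA, 0.42, 0.02 and -0.18 for FARSB, and -0.07, 0.36 and 0.02 for MARS1.

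The same test passed 15 of the other named genes for which it was looked up, where 15.4% of all genes passed. Most of these genes were named in order of their adjusted p under MHCC-97H. The interaction uses the same libraries, so this count is no separate result. The adjusted p was 0.00265 for ATF4, 0.00431 for ASNS, 0.0142 for EIF2AK3, 0.0249 for EIF2AK4 and 0.0156 for GBP1. It was 0.0143 for EEF1D, 0.0150 for EEF1B2, 0.0165 for EEF2, 0.00845 for GFM1 and 0.0309 for TUFM. Of the 6 cytosolic elongation genes 4 passed, and EEF1G was not among the genes looked up singly. The adjusted p was 0.0169 for XPOT, 0.0368 for POP7, 0.0327 for HSD17B10, 0.0304 for SEPSECS and 0.0259 for EEFSEC.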

How the results depend on the processing

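For counts of called members, 517 recomputed values stayed within 1.5 times the reported count and 43 did not. Of single members' values 9557 stayed on their side of the threshold, 268 lost a call, 103 gained one and 12 called values changed sign. Sign changes of values without a call are held in the 9557. AARS1 under MHCC-97H, for example, went from -0.10 to 0.04 with the GC and length trend removed. With library totals 0 cytosolic and 0 mitochondrial members were lower with H3B-8800 under MHCC-97H, and 4 mitochondrial members were higher at baseline than under MDA-MB-231. Mitochondrial members lower under MHCC-97H numbered 1 with upper-quartile factors, 5 with the replicate block and 0 with the MHCC-97H libraries alone, where 2 cytosolic members were lower. With the 2 labels compared alone, 0 members differed in response between MHCC-97H and HCT-116. With the GC and length trend removed, 4 cytosolic members were higher, 1 cytosolic and 0 mitochondrial lower (0 also with the replicate block), and 4 mitochondrial members were lower at baseline than under MDA-MB-231 and 5 than under HCT-116. The members differing in response then numbered 5 for MHCC-97H against MDA-MB-231, 4 against HCT-116 and 4 for the interaction. For the mean over MDA-MB-231 and HCT-116, DESeq2 called 2, limma voom 1, the replicate block 2 and trend removal 1, and DESeq2 called 1 under HCT-116.

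Leaving out 1 library gave 1 to 4 cytosolic and 1 to 4 mitochondrial members lower under MHCC-97H, 0 to 1 called for the mean over labels, 7 to 15 differing between MHCC-97H and MDA-MB-231, and 2 to 15 both between MHCC-97H and HCT-116 and for the interaction. The lowest interaction count was without control 3 of MHCC-97H, and 4 remained without its control 2 or treated library 2. Against HCT-116 2 remained without control 1 or control 3 of HCT-116, 3 without control 3 of MHCC-97H, 4 without its treated library 2, and 5 without its control 2, its treated library 1 or treated library 2 of HCT-116. Against MDA-MB-231 7 remained without control 3 of MHCC-97H. The replicate block also ended the calls of FARSA and HARS1 under MHCC-97H and added SARS1, YARS1, SARS2 and VARS2, and it gave 15 members for the interaction.

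Among called values, signs changed with the trend removed for IARS1 in its difference between MHCC-97H and MDA-MB-231 (-0.0176, and -0.015 with the replicate block). At baseline against MDA-MB-231 this gave -0.0542 for AARS2, 0.16 for FARSB, 0.21 for GARS1, 0.22 for IARS2 and 0.12 for WARS2, and library totals gave -0.001 for HARS2. Against HCT-116 it gave 0.18 for FARSB, 0.22 for IARS2, 0.11 for LARS2 and 0.056 for WARS2. The cause was not tested.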
